A study of Mus musculus with 2 samples.

Results

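Imprinted genes that lie outside the distal chromosome 7 cluster were compared between the genotypes MatDup.dist7 and PatDup.dist7 in mouse embryonic fibroblasts (MEFs), which are connective-tissue cells cultured from the embryo body. The set was named by gene symbol from known imprinted loci, and a gene counted as measured where a probe set of the array carried its symbol alone. Of 47 named genes 43 were measured, among 19938 genes in all, each by 1 probe set. Zrsr1 and Slc22a3 had no value here. For Mirg and Gnas the probe set also carried a second symbol, so neither was used.

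The embryos of either genotype were at 13.5 days post coitum. As background, MatDup.dist7 cells carry the distal part of chromosome 7 from the mother on both homologues, and PatDup.dist7 cells carry it from the father on both. The labels name no other allele and no treatment, and the number of embryos behind each culture is not given in them. Each genotype was hybridised to 1 array, so no difference below could be set against variation between cultures, no test was possible and no p-value is given. No breakpoint of the duplication was at hand, and whether the chromosome 7 genes described below lie inside the duplicated segment was not established.

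An imprinted gene is transcribed mainly from the copy inherited from 1 parent. The choice is set in the germ line, usually by DNA methylation of a control region that governs a cluster of genes, and the zinc-finger protein Zfp57 keeps that methylation in the early embryo by binding the methylated hexamer TGCCGC. Many paternally expressed genes promote fetal growth and many maternally expressed ones restrain it. The comparison asks whether transcripts of the other imprinted loci differ between the genotypes. The labels name no duplication of those loci, but their parental origin in these cells was not established. Whether a difference at those loci follows from the parental origin of distal chromosome 7 was therefore not tested.

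Values are intensities of the probe sets on a linear scale. A difference is the MatDup.dist7 value less the PatDup.dist7 value after log2(intensity + 16), a scale on which weak signals appear closer together than they are. A gene was called where the difference reached 2-fold, a log2 difference of 1. A gene was taken as above the filter where its higher value lay above the median of all probe sets, an intensity of 66.4, and 33 of the 43 genes did. As each gene had a single probe set, no second probe set checks any of these values. In genes with several probe sets above the filter, the log2 difference varied between probe sets of 1 gene with a standard deviation of 0.43.

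The arrays are described here by markers and scale. Over all genes the median log2 difference was 0.02. Of 12 fibroblast markers 11 were measured, with summed intensities of 42266 and 49064 for MatDup.dist7 and PatDup.dist7, and 9 of the 11 were lower in MatDup.dist7, with a median difference of -0.23 (Prrx1 -0.82, Twist1 -0.76). Lum (51.7 and 52.7) lay under the filter. All 6 epithelial markers were higher in MatDup.dist7, with a summed intensity of 778 against 436. Macrophage markers summed to 5290 and 6001 (8 of 8 measured, 3 higher in MatDup.dist7), neural markers to 1153 and 874 (8 of 8, 5 higher in MatDup.dist7), skeletal muscle markers to 1246 and 1438 (7 of 7, 2 higher in MatDup.dist7), trophoblast markers to 349 and 348 (4 of 7, 2 higher in MatDup.dist7) and liver markers to 1026 and 842 (4 of 4, all higher in MatDup.dist7). Albumin, a defining liver marker, was listed at 18.7 and 0.00510. The Y-linked Eif2s3y stood at 112 and 6.44 and Xist at 0.00166 and 91.2, so sex-linked transcripts differed along with the genotype. The part of these cell types and of sex in the differences below was not tested.

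Most imprinted genes outside the distal cluster lay within 2-fold between the genotypes, as did most genes of the array. Those that did not went in both directions. Of the 43 genes 7 reached 2-fold (16.3%), whereas 7.63% of all genes did. Of the 7, 5 were higher in MatDup.dist7, where 4.47% of all genes were called, and 2 were higher in PatDup.dist7, where 3.16% were. Above the filter 4 of 33 were called (12.1%), 2 in each direction, against a background of 5.16% in either direction, 2.74% higher in MatDup.dist7 and 2.42% higher in PatDup.dist7. The difference lay under 0.5 in size for 25 of the 43 genes (58.1%) and for 12768 of the 19938 genes, and its median size was 0.48 against 0.38 over all genes. The excess over the background depended on the pseudocount. With a pseudocount of 1, 9 of the 43 genes were called (20.9%) against 19.5% of all genes. With a pseudocount of 64, 2 were called (4.65%) against 0.868% of all genes. The 43 genes were chosen by name, with earlier results of these arrays known, and the counts describe these 2 arrays only.

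**Figure D1:**
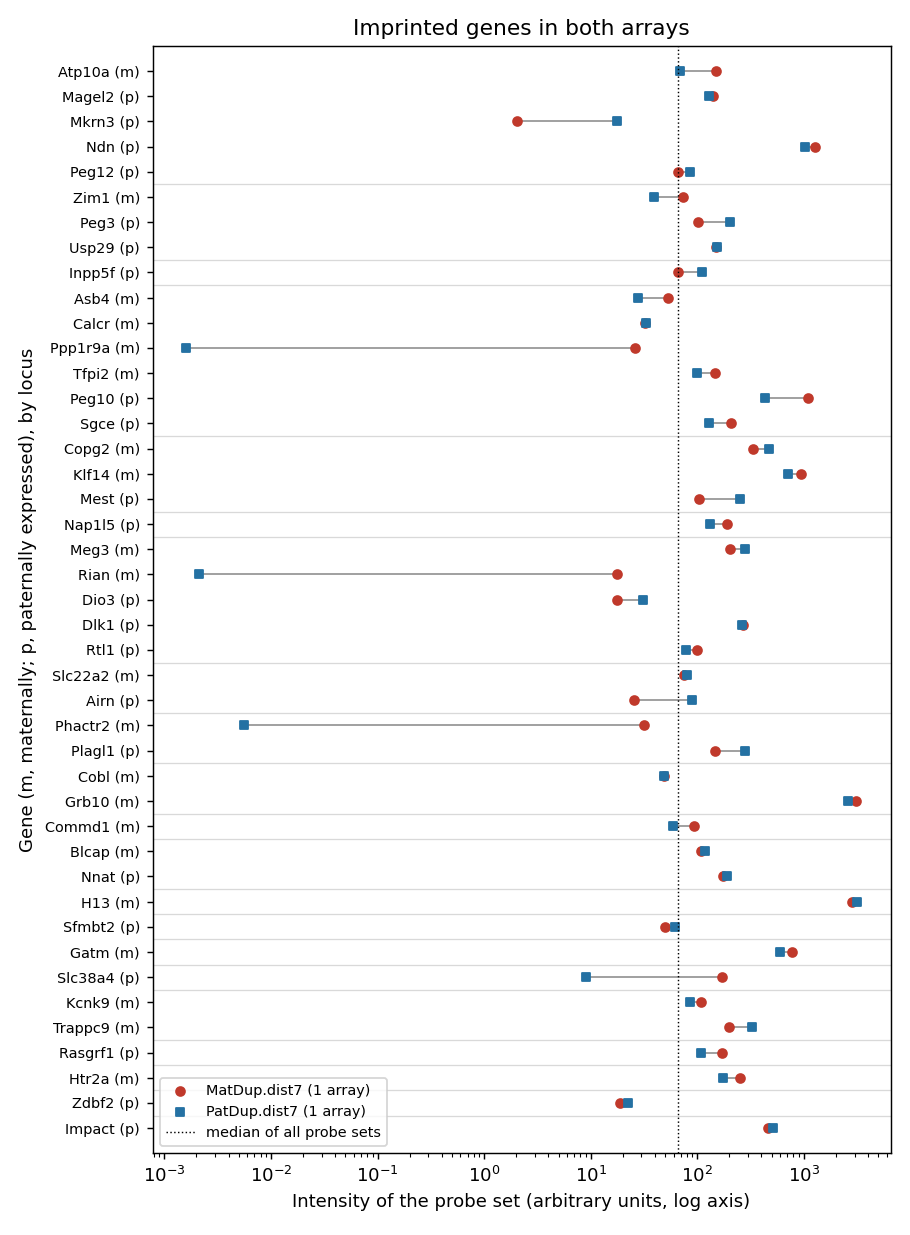
Intensity of each of the 43 measured imprinted genes (log axis, arbitrary units) on the MatDup.dist7 array (red circles) and the PatDup.dist7 array (blue squares), grouped by locus, with the median of all probe sets (66.4) dotted. Slc38a4 stood at 171 and 8.97, and the PatDup.dist7 values of Ppp1r9a, Rian and Phactr2 lay under 1, while most pairs of points lie close together.

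The 4 calls above the filter were Slc38a4, Peg10, Airn and Mest, all known as paternally expressed. The other calls, Phactr2, Ppp1r9a and Rian, are known as maternally expressed, and each rests on a PatDup.dist7 value under 1 beside a weak MatDup.dist7 signal. The intensities do not come with a detection call, so whether a transcript was missing cannot be read from a value under 1.

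Slc38a4 encodes an amino acid transporter of the system A type and is among the genes whose imprint was reported to be set by histone H3 methylation in the oocyte instead of DNA methylation. The gene lies on chromosome 15, and the parental origin of that chromosome in these cells was not established. Slc38a4 showed the largest difference of the 43 genes on the log2(intensity + 16) scale. Its probe set (10431915) gave 171 for MatDup.dist7 and 8.97 for PatDup.dist7. This is a log2 difference of 2.91, or 7.49-fold. It stayed beyond 2-fold with every pseudocount and scaling tried and with a floor under values below the 25th percentile (range 1.69 to 4.11). Other genes of that group did not share the direction. Sfmbt2, which encodes a Polycomb-group protein, differed by -0.24 (49.6 and 61.4), Gab1, a docking protein of receptor signalling, by -0.64 (149 and 241), and Jade1 by -0.51 (173 and 253). The neighbouring transporter genes Slc38a2 and Slc38a1 differed by -0.28 and 0.16, so the excess was confined, among Slc38a4 and its 3 nearest measured genes on each side, to Slc38a4 itself.

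To place the differing genes in their sequence context, the 250 bases before 1 annotated start of Slc38a4, Mest and Airn, and the stretch between the divergent starts of Peg3 and Usp29, are shown from RefSeq on GRCm38.p6. They are written 5′ to 3′ in the direction of the gene (Peg3-Usp29 in that of Usp29), and capitals mark CpG dinucleotides, the sites of DNA methylation. Slc38a4 is at chr15:97055957-97056206, minus strand, with 3 CpGs. Mest is at chr6:30737800-30738049, plus strand, with 14 CpGs and 2 matches to TGCCGC. Airn is at chr17:12741061-12741310, plus strand, with 2 CpGs. Peg3-Usp29 is at chr7:6730420-6730582, plus strand, with 5 CpGs in 163 bases.
Slc38a4: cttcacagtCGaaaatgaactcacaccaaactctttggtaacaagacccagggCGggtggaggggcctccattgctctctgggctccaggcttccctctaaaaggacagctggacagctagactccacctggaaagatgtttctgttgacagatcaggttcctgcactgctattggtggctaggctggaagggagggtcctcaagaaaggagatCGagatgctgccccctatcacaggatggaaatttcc
Mest: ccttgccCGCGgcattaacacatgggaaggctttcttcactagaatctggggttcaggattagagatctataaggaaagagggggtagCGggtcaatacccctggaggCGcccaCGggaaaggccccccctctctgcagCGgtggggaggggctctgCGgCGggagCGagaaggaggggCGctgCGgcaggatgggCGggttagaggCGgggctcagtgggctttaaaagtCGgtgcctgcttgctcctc
Airn: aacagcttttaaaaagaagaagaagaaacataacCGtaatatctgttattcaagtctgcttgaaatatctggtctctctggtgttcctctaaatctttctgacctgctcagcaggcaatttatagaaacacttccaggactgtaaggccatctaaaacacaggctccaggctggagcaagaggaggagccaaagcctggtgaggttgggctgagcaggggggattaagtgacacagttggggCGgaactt
Peg3-Usp29: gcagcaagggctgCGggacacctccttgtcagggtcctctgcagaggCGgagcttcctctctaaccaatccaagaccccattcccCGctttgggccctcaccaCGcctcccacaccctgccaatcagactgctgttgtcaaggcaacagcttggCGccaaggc

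The promoter windows (250 bases before to 50 after a start) of the set were about as rich in CpG as those of other genes on the array. RefSeq windows were found for 36 of the 43 measured genes, 51 windows in all, some of which overlap. Their median was 15 CpGs in 300 bases, the same as for the 19177 windows of all measured genes, and 7 for all 32851 windows. TGCCGC, searched on both strands as TGCCGC and GCGGCA, was found in 13 of the 51 windows (25.5%), which belong to 12 genes. The share was 15.1% in the windows of all measured genes and 11.6% in all windows. Among the called genes, the windows of Slc38a4 (5 CpGs in each of 3 windows), Airn (3 CpGs) and Rian (0 CpGs) were CpG-poor. The windows of Ppp1r9a held 48 and 10, those of Mest 8, 17 and 17, and that of Phactr2 17. No window was found for Peg10. A match to a hexamer is a description of the sequence, and methylation was not measured here.

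The Peg10-Sgce locus on chromosome 6 held the most calls of any locus in the set with a pseudocount of 16. It also had the most measured genes, and its share of calls (33.3%) was not the highest. Of its 6 measured genes in the set 5 were higher in MatDup.dist7, 2 of them beyond 2-fold. The median difference of the 6 was 0.64. Over all genes 51.4% were higher in MatDup.dist7 and 4.47% were called so, and 1 of the 2 calls, Ppp1r9a, lay under the filter. Peg10, derived from a retrotransposon and required for the placenta, gave 1093 for MatDup.dist7 and 430 for PatDup.dist7 (probe set 10536294). Its log2 difference of 1.31 stayed beyond 2-fold in every setting that could change it, between 1.23 and 1.37. Sgce, which encodes epsilon-sarcoglycan and is transcribed away from Peg10 from an adjacent start, read 206 and 128, a difference of 0.62. Both paternally expressed genes of the set at this locus were thus higher in MatDup.dist7.

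The maternally expressed genes of the set at this locus leaned the same way. Ppp1r9a, which encodes the actin-binding protein neurabin, was listed at 26.3 and 0.00160 (probe set 10536297). Its log2 difference was 1.403, with 4.77 for a pseudocount of 1 and 0.50 for a pseudocount of 64. Tfpi2, a protease inhibitor gene, read 146 and 99.9 (0.48), and Asb4, which encodes a substrate receptor of a ubiquitin ligase, read 53.4 and 27.9 (0.66). The calcitonin receptor gene Calcr was the exception, with 32.6 and 32.9 (-0.01). Of the 6 nearest measured genes outside the set around Peg10, Sgce and Ppp1r9a, 5 lay on the other side. The nearest genes around Calcr, Tfpi2 and Asb4 lay on both sides. Pon1, the nearest on 1 flank, read 209 and 147 (0.47). Casd1 read 101 and 190 (-0.82), Pon2 124 and 234 (-0.84) and Pon3 19.6 and 47.6 (-0.84), all higher in PatDup.dist7 but within 2-fold, as was Bet1 with -0.93, and Col1a2, a collagen gene, differed by -0.21.

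At the Mest locus, also on chromosome 6, the paternally expressed gene was the lower one in MatDup.dist7. Mest, an enzyme-like protein of the mesoderm whose loss reduces fetal growth, gave 105 for MatDup.dist7 and 252 for PatDup.dist7 (probe set 10537062), a log2 difference of -1.15 or 2.22-fold. It lay within 2-fold only with a pseudocount of 64 (-0.91). Copg2, a coat protein gene that runs opposite to Mest and overlaps it, read 337 and 468 (-0.46). Klf14, a transcription factor gene, went the other way with 950 and 710 (0.41).

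The microRNA gene Mir335 lies in an intron of Mest and is carried by its transcript. Its own probe set read 458 and 495, a difference of -0.11, so it did not show the difference seen for Mest. Whether that probe set reads the mature microRNA, its precursor or the host transcript was not established. Both mature arms are shown from RefSeq with the seed, bases 2 to 8, in capitals, together with those of Mir127, a maternally expressed microRNA of the Dlk1-Dio3 cluster that is antisense to Rtl1. All 4 seeds differ from each other.
miR-335-5p: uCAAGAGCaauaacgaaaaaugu
miR-335-3p: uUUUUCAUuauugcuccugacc
miR-127-5p: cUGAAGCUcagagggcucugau
miR-127-3p: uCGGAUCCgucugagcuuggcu

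The Dlk1-Dio3 cluster on chromosome 12 had 3 genes of the set above the filter, all within 2-fold. Dlk1, a transmembrane protein related to Notch ligands that restrains fat cell formation, read 267 and 264, a difference of 0.02. Rtl1, another retrotransposon-derived gene, read 99.6 and 79.3 (0.28), and Mir127 on the opposite strand read 115 and 97.8 (0.20). Meg3, the maternally expressed non-coding RNA of the cluster, read 203 and 281 (-0.44). Meg3 was the only maternally expressed gene of the set in this cluster above the filter. Mir127, outside the set, also lay above the filter, on the opposite side from Meg3. Dio3, whose product inactivates thyroid hormone, was weak at 17.5 and 31.0 (-0.49). Rian, a non-coding RNA that hosts small nucleolar RNAs, was listed at 17.8 and 0.00209 (probe set 10398360). Its log2 difference of 1.08 was the smallest of the 7 calls. It was 4.23 with a pseudocount of 1 and 0.35 with a pseudocount of 64, and under a floor at the 25th percentile both arrays stood at the floor.

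Airn is the paternally expressed non-coding RNA that crosses Igf2r in antisense and silences Igf2r, Slc22a2 and Slc22a3 on its own chromosome, the transporter genes in placenta. It gave 25.5 for MatDup.dist7 and 89.4 for PatDup.dist7 (probe set 10441787), a log2 difference of -1.35, or -0.78 with a pseudocount of 64. Igf2r, the clearance receptor for Igf2, was also higher in PatDup.dist7, with 882 and 1390 (-0.65). Slc22a2, an organic cation transporter gene, read 74.8 and 80.9 (-0.09). The silencing RNA and its overlapping target therefore lay on the same side on these arrays, Igf2r within 2-fold. The strand read by each probe set was not established here, and Airn overlaps Igf2r in part.

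**Figure D2:**
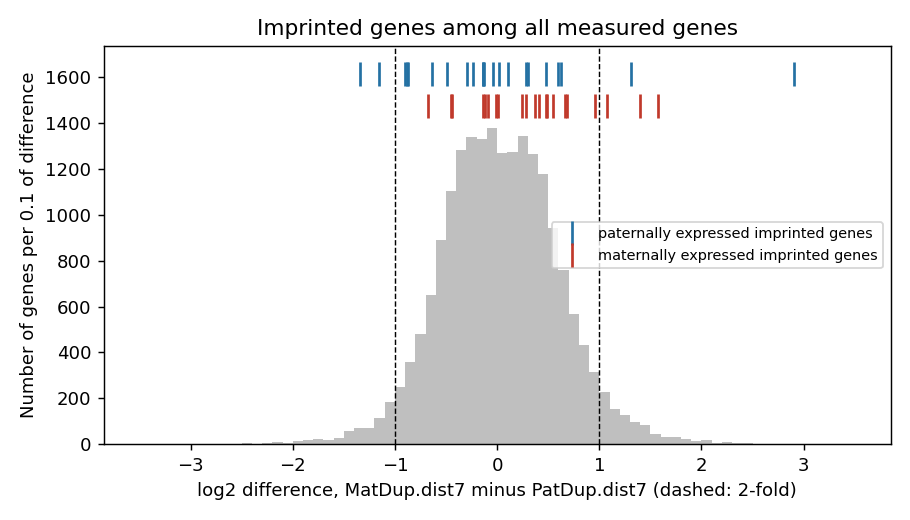
Number of genes by log2 difference for all measured genes in steps of 0.1 (grey, genes beyond 3.5 not drawn), with the 22 paternally expressed (blue) and 21 maternally expressed (red) imprinted genes as ticks above and dashed lines at 2-fold. The paternal ticks centre on -0.13 and reach both tails, and the maternal ticks centre on 0.37.

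Genes known as paternally and as maternally expressed differed in where their values lay. The classes are those reported for each gene, and which allele was transcribed in these cells was not measured. Of the 22 paternally expressed genes 9 had a positive difference and 13 a negative one, with a median of -0.13 and a mean of -0.03. Of the 21 maternally expressed genes 14 had a positive difference and 7 a negative one, with a median of 0.37. Over all genes 51.4% were higher in MatDup.dist7. Among genes above the filter the medians were -0.01 for 18 paternally expressed and 0.29 for 15 maternally expressed genes, none of the latter reaching 2-fold. With 1 array a genotype this offset was not tested.

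Loci that join genes of both classes showed no common pattern. Plagl1, a zinc-finger transcription factor that acts on other imprinted genes, read 146 and 282 (-0.88), just under 2-fold. Its neighbour Phactr2, a regulator of protein phosphatase and actin, was listed at 31.8 and 0.00558 (probe set 10367945), a log2 difference of 1.58 that was 5.03 with a pseudocount of 1 and 0.58 with a pseudocount of 64. Nnat, a membrane protein gene that lies within an intron of Blcap, read 174 and 192 (-0.13), and Blcap read 109 and 119 (-0.12). The Nnat and Blcap pair was thus nearly equal in both genotypes, while the Plagl1 and Phactr2 pair lay on opposite sides.

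Grb10, an adaptor that dampens insulin and growth factor signalling, is expressed from the maternal copy in most tissues. It was strong in both cultures, with 3103 and 2612, and differed by 0.25. The actin nucleator gene Cobl beside it read 48.9 and 48.5 (0.01). Trappc9, a membrane traffic gene, read 197 and 326 (-0.68), and the potassium channel gene Kcnk9 next to it read 108 and 85.7 (0.29). None of these reached 2-fold.

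On chromosome 7 itself the 9 measured imprinted genes outside the distal cluster were all less than 2-fold apart. The central cluster corresponds to the region of Prader-Willi and Angelman syndromes in human. Ndn and Magel2, both of the MAGE protein family, differed by 0.30 (1264 and 1023) and 0.11 (140 and 128). Peg12 read 66.5 and 85.2 (-0.29). Mkrn3, a ring-finger protein gene, was weak at 2.03 and 17.7, and its difference of -0.90 became -2.63 with a pseudocount of 1. Atp10a, a phospholipid flippase gene, stood nearest to the threshold of those not called, with 150 and 69.5 (0.96). A pseudocount of 1 (1.10) or a floor under values below the 25th percentile (1.11) carried it past 2-fold.

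Peg3 and Usp29 of the proximal cluster start from the divergent stretch shown above and are both paternally expressed. Peg3, a zinc-finger protein of growth and maternal care, gave 102 for MatDup.dist7 and 202 for PatDup.dist7, a difference of -0.88. Usp29, a ubiquitin-specific protease gene, read 149 and 154 (-0.04). The shared start region was thus not accompanied by a shared difference. Zim1, a maternally expressed zinc-finger gene of the same cluster, read 73.2 and 39.5 (0.69). Outside both clusters, Inpp5f, an inositol phosphatase gene with an imprinted isoform, read 65.6 and 111 (-0.64). Its promoter window is at chr7:128611115-128611414, further along the chromosome than either cluster.

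**Figure D3:**
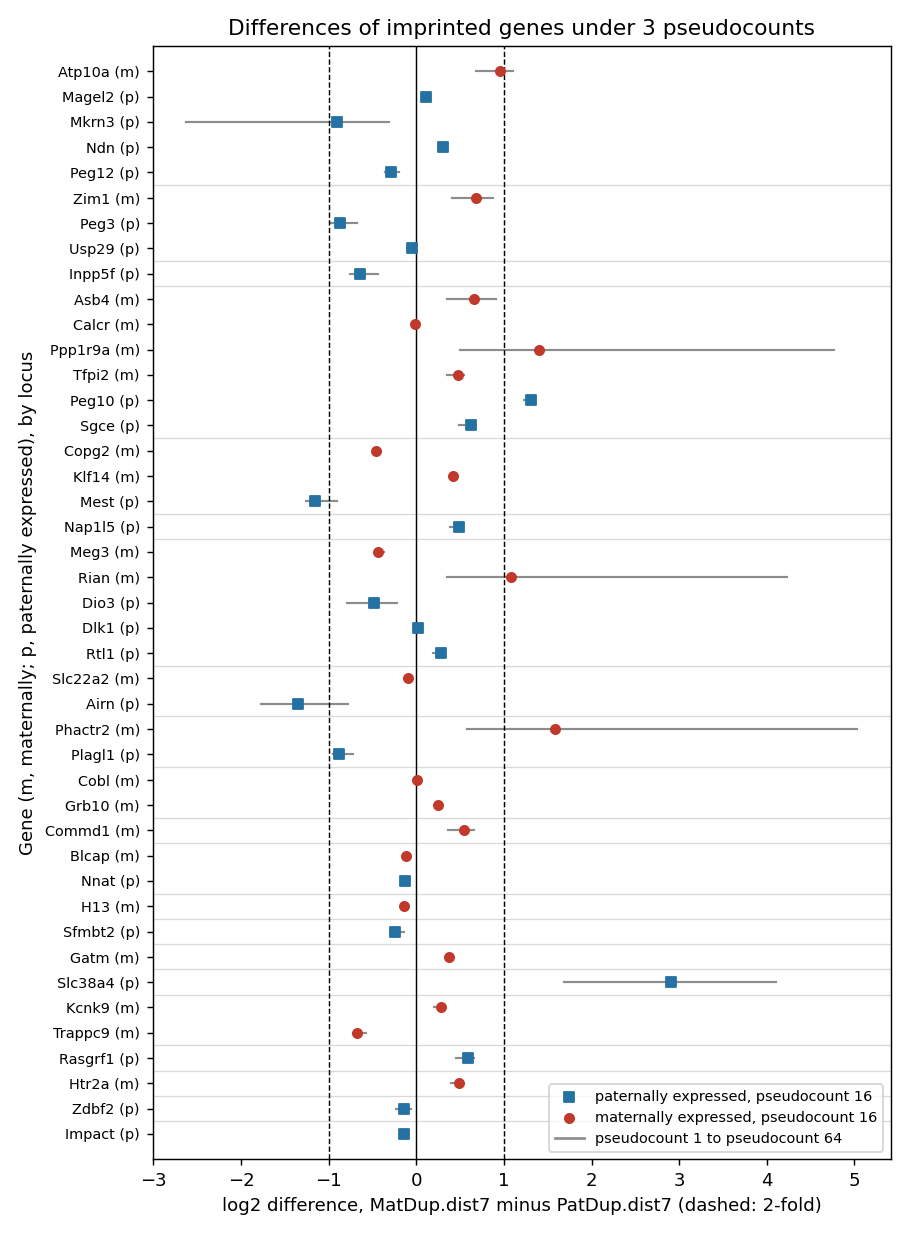
Log2 difference of each measured imprinted gene (MatDup.dist7 minus PatDup.dist7) with a pseudocount of 16 (blue squares, paternally expressed; red circles, maternally expressed) and the span between pseudocounts of 1 and 64 (grey bars). Slc38a4 and Peg10 stay beyond the dashed 2-fold lines throughout, while the bars of Phactr2, Ppp1r9a and Rian cross the line.

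The remaining genes are single imprinted genes of other loci, and all lay within 2-fold. Rasgrf1, a guanine nucleotide exchange factor gene, read 172 and 109 (0.59), and Nap1l5, a nucleosome assembly gene that sits inside Herc3, read 191 and 132 (0.48), with Herc3 at 0.02. Impact, a regulator of translation under stress, read 463 and 511 (-0.14). Zdbf2 was weak at 19.01 and 22.59 (-0.14). H13, the signal peptide peptidase gene, read 2865 and 3154 (-0.14), and Mcts2, a retrogene inside it, differed by -0.01. Gatm, an enzyme of creatine synthesis, read 780 and 600 (0.37). Commd1, involved in copper handling, read 93.5 and 58.9 (0.55), and the serotonin receptor gene Htr2a read 250 and 174 (0.48).

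Genes around the called ones all lay within 2-fold. The 3 nearest measured genes on each side of the 7 called genes, leaving out genes of the set, came to 36 distinct genes, and none reached 2-fold. Their median difference was -0.16, and the lowest and the highest were -0.93 and 0.62. Some of them lay more than 2-fold apart in intensity itself, such as the weak Mir370 (8.54 and 0.00113) and Mir29a (6.12 and 21.9). So did Bet1 (44.1 and 98.7), which was above the filter. That none was called thus depends on the pseudocount. Around all 43 genes there were 155 such neighbours, of which 14 reached 2-fold (9.03%, background 7.63%), 7 on each side. Several of these neighbours are imprinted themselves, among them Igf2r and the microRNAs beside Rian. Casd1, Pon2 and Pon3 are also reported as imprinted, Casd1 in some tissues.

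**Figure D4:**
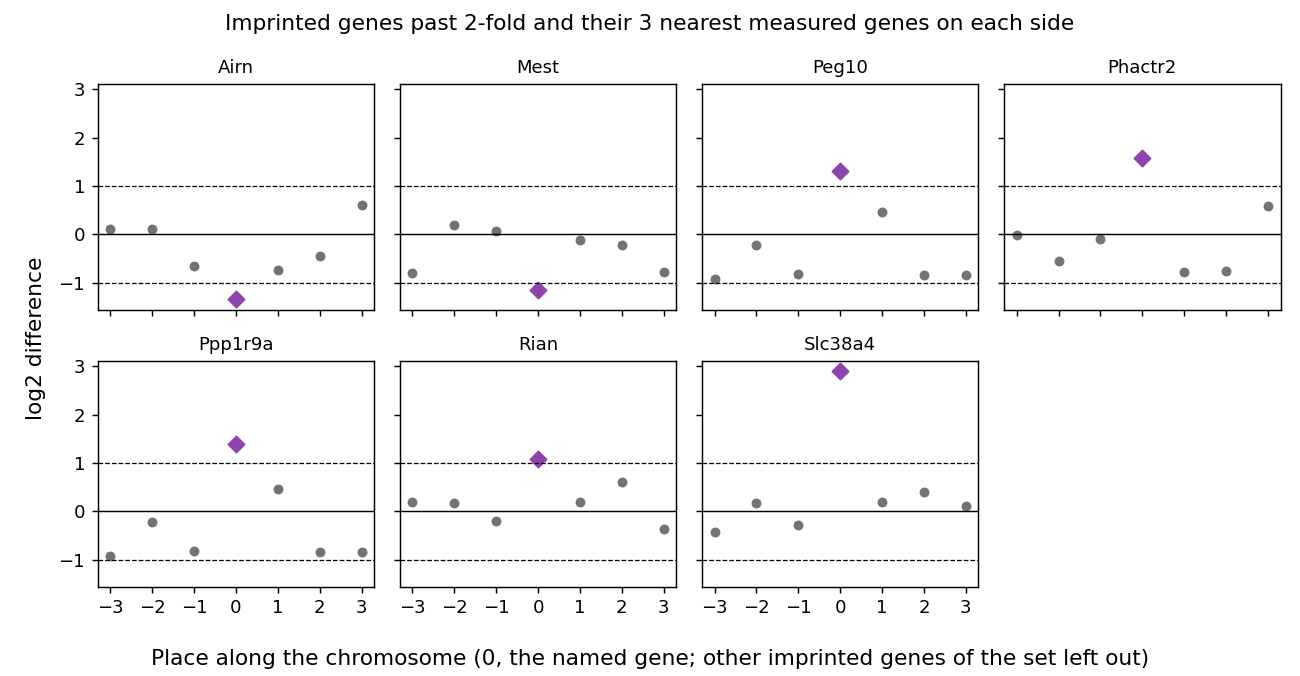
Log2 difference (MatDup.dist7 minus PatDup.dist7) of each of the 7 called genes (purple diamonds, place 0) and of its 3 nearest measured genes on each side (grey), by place along the chromosome, other imprinted genes of the set left out. All grey points lie between the dashed 2-fold lines, from -0.93 to 0.62.

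Other reported imprinted genes and the paralogues of the set gave a comparison outside it. Of 23 other genes reported as imprinted 18 were measured, and 1 reached 2-fold (5.56%, background 7.63%). This was Dcn, which encodes the matrix proteoglycan decorin, lower in MatDup.dist7 with 142 against 592 (-1.95). Of 38 paralogues 36 were measured, and 3 reached 2-fold (8.33%), a share near the background of 7.63%. These were Htr2b, a serotonin receptor gene (18.9 and 98.9, -1.72), Atp10d, a flippase gene (33.7 and 109, -1.33), and Asb5 (31.6 and 6.17, 1.10). None of the 3 is a paralogue of a called gene, and Htr2a, Atp10a and Asb4 within the set had differences of 0.48, 0.96 and 0.66. Htr2b and Atp10d lay on the opposite side from their relatives and Asb5 on the same side.

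The distal chromosome 7 cluster held larger differences than any of the 43 genes on the log2(intensity + 16) scale. The cell-cycle inhibitor gene Cdkn1c was listed at 1109 and 0.0132, a difference of 6.13, and the growth factor gene Igf2 at 7.48 and 1013, a difference of -5.45. The lower value of each lay under the 25th percentile of all probe sets, so these sizes depend on the pseudocount. The 43 genes ranged from -1.35 to 2.91. Of the 14 measured genes of the distal cluster 3 reached 2-fold (21.4%, background 7.63%), and the median size of the difference was 0.42, against 0.48 in the set and 0.38 over all genes. This comparison rests on 1 array a genotype and was not tested.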

How the data were processed

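Biotin-labelled sense targets of whole transcripts were hybridised to an Affymetrix array, per the labels' protocols. The authors deposited 1 linear intensity per probe set and array, made with Affymetrix Expression Console, per the submitters' processing notes. Not given in the sources used here were the background correction, summarisation, normalisation and build. The median intensity was 68.6 (MatDup.dist7) and 64.2 (PatDup.dist7), and 4.78% and 5.03% of the values lay under 1. The number of arrays, 1 per genotype, limits the precision.

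Of 35557 probe sets 21789 carried 1 gene symbol in the platform annotation, 1621 several and 12147 none. Those with 1 symbol were used, and 21698 were matched by gene identifier to RefSeq (GRCm38.p6) for current symbols and gene order. Then log2(intensity + 16) was computed and probe sets of a gene were averaged (Python 3.11.15, pandas 2.3.3). The calculations were tested on simulated data. Alternatives were pseudocounts of 1 and 64, a floor, 2 scalings, 2 filters, the brightest probe set and a 3-fold rule. Every measured gene of the set could be named. Other genes came from lists of imprinted genes, paralogues and cell markers, or were neighbours of called genes. The genes, lists and the pseudocount were chosen with earlier results of these data known.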

Additional observations from a re-analysis of the deposited data

How the results depend on the processing

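Of the 43 differences, Slc38a4 and Peg10 stayed beyond 2-fold under all 8 alternatives. Mest and Airn did so under 7, failing with a pseudocount of 64 (-0.91 and -0.78). Phactr2, Ppp1r9a and Rian were called under 4 of the 6 alternatives that kept them. The exceptions were a pseudocount of 64 and the floor at the 25th percentile, under which Rian stood at 0. The filter at the 50th percentile and leaving out probe sets under 1 removed these 3 genes. In all these counts the 2 filters could only keep or drop a gene. The brightest probe set of each gene was its only one, so that setting could not change a value either. Atp10a passed 2-fold under 2 alternatives and Mkrn3 under 1. No called gene changed sign. Among genes near 0, Cobl became -0.06 with quantile normalisation, and Cobl and Dlk1 became -0.07 and -0.06 with the arrays centred on their medians. The count higher in MatDup.dist7, 5 as reported, was 2 with a pseudocount of 64, with the filter and without probe sets under 1, 3 with the floor, 6 with a pseudocount of 1 and 1 under a 3-fold rule. The count higher in PatDup.dist7, 2 as reported, was 3 with a pseudocount of 1, 0 with 64 and 0 under a 3-fold rule. The background moved with the pseudocount, to 19.5% of all genes for 1 and 0.868% for 64, where 20.9% and 4.65% of the 43 genes were called. Neighbours past 2-fold, 14 of 155 as reported, were 34 with a pseudocount of 1, 0 with 64, 4 with the filter and 1 under a 3-fold rule. Apart from settings that removed genes, the cause was not tested. The median stayed between -0.21 and -0.01 for paternally and between 0.26 and 0.42 for maternally expressed genes. For all 43 genes it was 0.02 as reported and ran from -0.06 to 0.11. No paired analysis was possible because each genotype has 1 array. Leaving out a replicate was not possible for the same reason.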
